A study of Mus musculus with 12 samples.

Results

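The genes described here are 9 genes of the NRF2 pathway and of glutathione synthesis, measured by RNA-seq in tumourspheres of mouse mammary cancer cells. They were chosen by name: Nfe2l2, Keap1, Gclc, Gclm, Gss, Gsr, Nqo1, Hmox1 and Srxn1. All 9 were found among the 18278 genes counted, and all 9 passed the filter on low counts, with 18176 genes tested. Expression was compared across 4 groups of 3 libraries each. LM1 and LM9 are lines derived from lung metastases in immunodeficient NOD/SCID mice that carried tumours of HR1.PB cells, a mammary cancer line with a mutant PIK3CA transgene under the ubiquitous CAG promoter and with piggyBac transposon mutagenesis. By the labels all 4 groups therefore share the PIK3CA transgene and the transposon history. The groups LM1 Nfib KO and LM9 Nfib KO are labelled as these lines after CRISPR-Cas9 targeting of Nfib, the gene of a transcription factor of the nuclear factor I family. By the study's methods each knockout was a pool of single-cell clones, so the libraries of a group would sample one pool. All cells were seeded at 10000 cells per mL in non-adherent plates and grown for 6 days without serum, with EGF and basic FGF at 20 ng per mL each. The labels number the libraries of a group from 1 to 3 but do not say whether these came from separate cultures, so p-values measure the spread between these libraries, which may be technical.

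NRF2, the protein of Nfe2l2, is a transcription factor that activates genes of defence against oxidants and electrophiles. KEAP1 holds NRF2 in the cytoplasm and presents it to a ubiquitin ligase for degradation, and modification of KEAP1 cysteines by oxidants releases NRF2. With a small MAF protein, NRF2 binds antioxidant response elements near genes of glutathione synthesis, of NADPH supply and of thiol repair. Control of NRF2 is therefore largely at the level of the protein, which RNA-seq does not measure. In many carcinomas the pathway is active and protects tumour cells from oxidative stress.

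A match to the core of the antioxidant response element, TGACNNNGC on either strand, was searched in RefSeq promoters of GRCm38.p6, taken as 250 bases before to 50 bases after the gene start. Of the 9 genes, 6 had a promoter in the table, and 3 of these held a match: Nfe2l2, Srxn1 and Gclm. Over all promoters in the table, 4071 of 32851 (12.4%) held one. The 3 windows are shown on the strand of the gene because their genes moved in different directions between the groups described below, and the capitals mark the bases of the match, with 10 bases on each side.
Nfe2l2, chr2:75704885-75704913, minus strand, match 240 to 232 bases before the start: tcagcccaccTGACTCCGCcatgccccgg
Srxn1, chr2:152105542-152105570, plus strand, match on the opposite strand 28 to 36 bases after the start: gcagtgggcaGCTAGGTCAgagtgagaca
Gclm, chr3:122245413-122245441, plus strand, match on the opposite strand 134 to 126 bases before the start: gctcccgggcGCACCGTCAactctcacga
The promoter windows of Gss, Nqo1 and Keap1 held no match to these letters.

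Library totals ran from 29249075 to 37162594 counts. Levels are given as CPM (counts per 1000000 counts of the library, scaled with TMM factors), and differences as log2 fold changes of limma-voom with adjusted p-values over all genes tested. Transcripts of Nfib itself were not lower in the libraries labelled knockout. Nfib was at 196, 217 and 241 CPM in LM1 and at 239, 238 and 228 CPM in knockout-labelled LM1 libraries. It was at 210.3, 119.6 and 133 CPM in LM9 and at 227, 247 and 246 CPM in knockout-labelled LM9 libraries. Its log2 fold change was 0.11 in LM1 (SE 0.16, limma-voom adjusted p = 0.533) and 0.68 in LM9 (SE 0.17, limma-voom adjusted p = 0.0026). Exon counts cannot tell an edited transcript from an intact one, so the Nfib level is no check of the labels, from which the groups are taken. Ero1l, an oxidoreductase gene of the endoplasmic reticulum that the study examined beside Nfib, was between 1089 and 1460 CPM in the 6 parental libraries and between 50.4 and 56.4 CPM in the 6 labelled knockout.

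Markers of epithelium moved with the knockout label. The summed level of the 9 mammary epithelial markers in the files, of 11 listed, ran from 767 to 825 CPM (unscaled) in LM1 and from 819.8 to 1377 in LM9, and from 9.47 to 10.1 in the libraries labelled knockout. In the 6 libraries labelled knockout Cldn3 and Cdh1 were at or under 3 counts, as was Cldn4, while Krt18 had a mean of 455 CPM in LM1 and 0.0484 CPM in knockout-labelled LM1 libraries. The 6 fibroblast markers in the files, of 7 listed, summed to between 144 and 295 CPM in the parental libraries and to between 1319 and 1425 in those labelled knockout. Col1a1 made up most of the latter, while Dcn was lower in them, at 12.7 CPM against 86.0 CPM in LM1 and at 13.6 CPM against 35.2 CPM in LM9. Of the endothelial markers 2 of 5 were in the files and summed to at most 1.1 CPM in parental libraries and to between 75.5 and 83.3 in those labelled knockout, with Cdh5 the main one. The only leukocyte marker in the files of 6 listed, Cd68, was at 426 to 456 CPM in parental libraries and at 106 to 115 in those labelled knockout. Krt7 at 1.37 CPM and Epcam at 0.613 CPM were still counted in knockout-labelled LM1 libraries, and Krt14, a basal keratin, went the other way, from 0.0553 CPM in LM1 to 7.51 CPM and from 0.121 CPM in LM9 to 7.18 CPM, and made up most of the remaining sum. Of the 9 epithelial markers 6 were above 3 counts in at least 1 knockout-labelled LM1 library and 5 in at least 1 knockout-labelled LM9 library. Most markers of a mammary epithelial line were therefore at or near 0 in the libraries labelled knockout, and the part of these marker differences in the results below was not tested. With these markers so different, the counts do not show that the libraries labelled knockout came from LM1 and LM9 cells. In each contrast below the origin of the cells and the targeting of Nfib cannot be told apart. In such bulk samples, fewer cells of a type and less RNA per cell cannot be told apart.

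One library stood apart. LM9 replicate 1 correlated across genes with the LM1 libraries at r = 0.998 and with LM9 replicates 2 and 3 at 0.972 to 0.974 (log2 CPM, a description across genes). For all 9 genes described here LM9 replicate 1 was nearer to the LM1 mean than to LM9 replicates 2 and 3. Calls of the 9 genes and counts of the gene lists in LM9 are therefore given with and without this library.

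The design asks how transcripts of the pathway differ when Nfib has been targeted. Hmox1, Srxn1, Nqo1, Gss and Gclc were higher and Nfe2l2 was lower in the libraries labelled knockout in both lines, while Gsr was slightly lower. Over all genes the 2 groups labelled knockout hardly differed, with a median log2 difference of 0.0515 in size between them. Agreement between the lines therefore cannot be counted as 2 independent results. Of the 9 genes, 6 rose and 2 fell in LM1, and 5 rose and 2 fell in LM9 (limma-voom, adjusted p under 0.05). Over all genes tested, 43.1% were higher and 38.1% lower in LM1, and 44.3% were higher and 38% lower in LM9, so that about as many of these genes passed as of all genes. Without LM9 replicate 1 all 9 genes passed in both lines, 6 higher and 3 lower in LM1 (46.4% and 42.1% of all genes) and 7 higher and 2 lower in LM9 (47.7% and 41.2% of all genes). The median log2 fold change of the 9 genes was 1.01 in LM1 and 1.1 in LM9, beside 0.0844 and 0.134 over all genes. With library totals in place of TMM factors the medians over all genes were 0.307 and 0.487, so the direction of small log2 differences depends on the scaling.

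**Figure D1:**
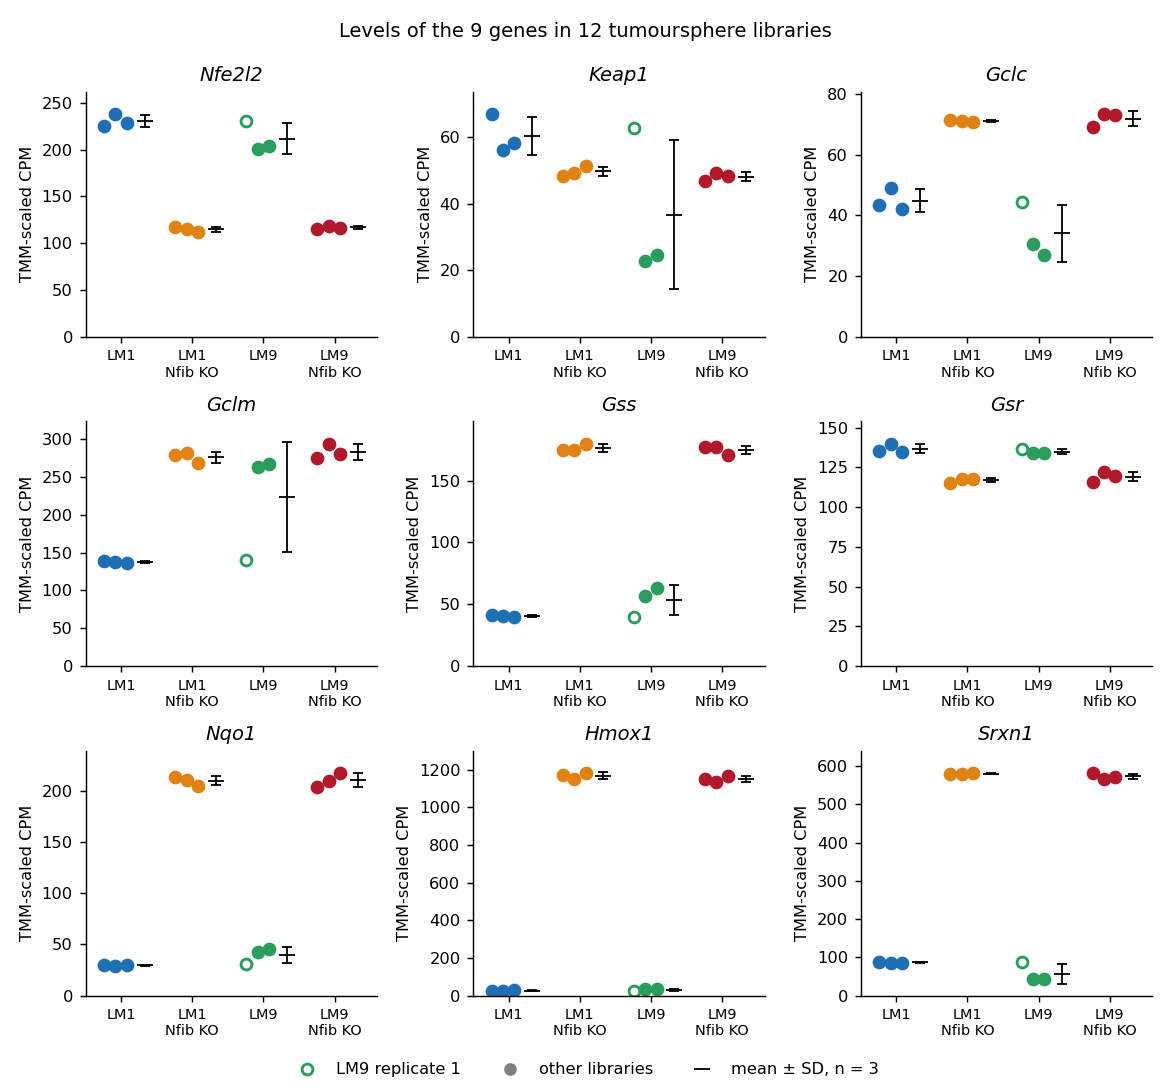
TMM-scaled CPM (y axis, from 0) of each of the 9 genes in the 12 libraries, grouped by line and knockout label (x axis), with mean ± SD of 3 libraries beside the points. Hmox1, Srxn1 and Nqo1 stand far higher in the libraries labelled knockout, and the open circle of LM9 replicate 1 lies at the level of LM1 in each panel.

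Nfe2l2, which encodes NRF2 (ENSMUSG00000015839, minus strand of chromosome 2, 75675513 to 75704641, mm10), was the most abundant of the 9 genes per length of exon in the parental lines. It was at 225, 238 and 229 CPM in LM1 and at 117, 115 and 112 CPM in knockout-labelled LM1 libraries. In LM9 the level was 230.3, 200.3 and 204 CPM, against 115, 119 and 117 CPM in knockout-labelled LM9 libraries. All parental libraries lay above all libraries labelled knockout, with no overlap. The transcript fell by 1.01 on the log2 scale in LM1 (SE 0.06, limma-voom adjusted p = 2.55e-08) and by 0.85 in LM9 (SE 0.06, limma-voom adjusted p = 1.08e-07). Without LM9 replicate 1 the LM9 value was -0.79 (SE 0.04). Of the genes whose promoter windows are printed above, Nfe2l2 therefore fell while Srxn1 rose in both lines.

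Keap1, the inhibitor of NRF2 (ENSMUSG00000003308, minus strand of chromosome 9, 21229730 to 21239361), was the member whose calls depended most on LM9 replicate 1. It was at 66.9, 56.1 and 58.2 CPM in LM1 and at 48.5, 49.4 and 51.3 CPM in knockout-labelled LM1 libraries. In LM9 it stood at 62.7 CPM in replicate 1 but at 22.8 and 24.7 CPM in replicates 2 and 3. Knockout-labelled LM9 libraries were at 46.7, 49.3 and 48.4 CPM, between these levels. In the fit of all libraries the log2 fold change was -0.28 in LM1 (SE 0.26, limma-voom adjusted p = 0.348) and 0.53 in LM9 (SE 0.28, limma-voom adjusted p = 0.0963), and neither passed. The spread is estimated over all groups together, so leaving out LM9 replicate 1 narrowed it in every comparison. Keap1 then fell in LM1 by 0.27 (SE 0.05, limma-voom adjusted p = 0.000189) and rose in LM9 by 1.02 (SE 0.08, limma-voom adjusted p = 1.21e-09). Over 21 alternative settings the Keap1 value ran from -0.32 to -0.05 in LM1 and from 0.28 to 1.02 in LM9, so it kept its sign in each line. Keap1 shares 510 bases of exon with the antisense gene Gm16754, and the use of strand in counting was not stated, so reads of the pair could have been shared.

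Glutathione is made in 2 steps. Glutamate-cysteine ligase joins glutamate and cysteine, with a catalytic subunit encoded by Gclc and a modifier subunit encoded by Gclm, and glutathione synthetase, encoded by Gss, adds glycine. The 3 genes of synthesis had higher means in the libraries labelled knockout, and of these Gss rose most. Gss (ENSMUSG00000027610, minus strand of chromosome 2, 155563181 to 155592810) was at 41.0, 40.2 and 39.8 CPM in LM1 and at 175, 175 and 179.9 CPM in knockout-labelled LM1 libraries (change of 2.13 on the log2 scale with SE 0.13, adjusted p by limma-voom 2.36e-08). LM9 libraries had 39.6, 57.1 and 63.0 CPM, against 177, 177 and 171 CPM in knockout-labelled LM9 libraries (change of 1.75 on the log2 scale with SE 0.13, adjusted p by limma-voom 1.15e-07). The LM9 change was 1.55 without LM9 replicate 1 (SE 0.04). The groups did not overlap in either line. Gss shares 395 bases of exon with Acss2 on the opposite strand, which makes its level less certain.

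Gclc (ENSMUSG00000032350, plus strand of chromosome 9, 77754535 to 77794485) changed less than Gss. It was at 43.4, 49.1 and 42.1 CPM in LM1 and at 71.6, 71.0 and 70.7 CPM in knockout-labelled LM1 libraries (change of 0.67 on the log2 scale with SE 0.13, adjusted p by limma-voom 0.000723). In LM9 its level was 44.6, 30.7 and 26.8 CPM, against 69.2, 73.3 and 73.2 CPM in knockout-labelled LM9 libraries (change of 1.1 on the log2 scale with SE 0.14, adjusted p by limma-voom 1.69e-05). The LM9 change of Gclc was 1.33 without LM9 replicate 1 (SE 0.07). Every library labelled knockout lay above every parental library.

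Gclm, the modifier subunit (ENSMUSG00000028124, plus strand of chromosome 3, 122245557 to 122270732), showed the least even pattern of the 3. It was at 138, 138 and 136 CPM in LM1 and at 278, 281 and 268 CPM in knockout-labelled LM1 libraries (change of 1.01 on the log2 scale with SE 0.19, adjusted p by limma-voom 0.000465). In LM9 it lay at 140.1 CPM in replicate 1 but at 263 and 267 CPM in replicates 2 and 3, near the 275, 294 and 280.0 CPM of knockout-labelled LM9 libraries. The log2 fold change in LM9 was 0.40 and did not pass (SE 0.19, limma-voom adjusted p = 0.0696), and without LM9 replicate 1 it was 0.10 (SE 0.04, limma-voom adjusted p = 0.0178). With TMM factors LM9 replicates 2 and 3 thus carried a level of Gclm close to that of the libraries labelled knockout, while LM9 replicate 1 did not. This closeness depended on the scaling. With library totals the log2 fold change of all LM9 libraries was 0.75 and passed (limma-voom adjusted p = 0.000537). Without LM9 replicate 2 the LM9 value was 0.55 and passed (limma-voom adjusted p = 0.0225), and without replicate 3 it was 0.57 and passed (limma-voom adjusted p = 0.0192). Gclm shares 244 bases of exon with the pseudogene Gm6061 on the same strand.

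Gsr encodes glutathione reductase, which returns oxidised glutathione to its reduced form at the cost of NADPH. With all libraries its differences were small beside those of the genes of synthesis. Without LM9 replicate 1 the LM9 change of Gclm, at 0.10, was smaller in size than that of Gsr. Gsr (ENSMUSG00000031584, plus strand of chromosome 8, 33652523 to 33698163) was at 135, 140.0 and 135 CPM in LM1 and at 115, 118 and 118 CPM in knockout-labelled LM1 libraries. It was at 137, 134 and 134 CPM in LM9 and at 116, 122 and 119.8 CPM in knockout-labelled LM9 libraries. With TMM factors it fell by 0.23 in LM1 (SE 0.05, limma-voom adjusted p = 0.000830) and by 0.18 in LM9 (SE 0.05, limma-voom adjusted p = 0.00388), or by 0.17 without LM9 replicate 1 (SE 0.04). This direction rested on the scaling, since with library totals the log2 fold change was -0.0041 in LM1 (limma-voom adjusted p = 0.955) and 0.17 in LM9 (limma-voom adjusted p = 0.0256).

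Hmox1, Nqo1 and Srxn1 are genes whose transcription NRF2 is known to activate, and these 3 had the largest rises. Hmox1 encodes heme oxygenase, which splits heme into biliverdin, carbon monoxide and iron. Hmox1 (ENSMUSG00000005413, plus strand of chromosome 8, 75093621 to 75100589) was at 26.4, 23.8 and 27.2 CPM in LM1 and at 1175, 1149.7 and 1183 CPM in knockout-labelled LM1 libraries. This was 45.4-fold higher (log2 fold change 5.51, SE 0.09, limma-voom adjusted p = 3.51e-12). In LM9 Hmox1 had 25.9, 33.9 and 34.2 CPM, against 1153, 1137 and 1169 CPM in knockout-labelled LM9 libraries, 37.2-fold higher (log2 fold change 5.22, SE 0.09, limma-voom adjusted p = 4.85e-12). The rise was 33.9-fold when LM9 replicate 1 was left out (log2 fold change 5.08, SE 0.05). The lowest library labelled knockout lay above the highest parental library by far more than the spread of either group.

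Srxn1 encodes sulfiredoxin, which repairs overoxidised peroxiredoxins. Srxn1 (ENSMUSG00000032802, plus strand of chromosome 2, 152105516 to 152111376) was at 87.8, 85.0 and 86.3 CPM in LM1 and at 579, 579 and 582 CPM in knockout-labelled LM1 libraries (change of 2.75 on the log2 scale with SE 0.20, adjusted p by limma-voom 1.1e-07). LM9 libraries stood at 87.2 CPM in replicate 1 and at 41.9 and 42.7 CPM in replicates 2 and 3, against 581, 566 and 572 CPM in knockout-labelled LM9 libraries. The log2 fold change in LM9 was 3.40 (SE 0.20, limma-voom adjusted p = 2.36e-08), and 3.76 without LM9 replicate 1 (SE 0.04). Srxn1 thus reached like levels in both groups labelled knockout, while LM9 replicates 2 and 3 lay below LM1.

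Nqo1 encodes a quinone reductase that uses NADH or NADPH. Nqo1 (ENSMUSG00000003849, minus strand of chromosome 8, 107388225 to 107403206) was at 29.7, 29.1 and 30.3 CPM in LM1 and at 214, 211 and 205 CPM in knockout-labelled LM1 libraries (change of 2.82 on the log2 scale with SE 0.12, adjusted p by limma-voom 9.86e-10). Levels in LM9 were 30.4, 42.8 and 45.4 CPM, against 204, 210.2 and 218 CPM in knockout-labelled LM9 libraries (change of 2.44 on the log2 scale with SE 0.11, adjusted p by limma-voom 2.77e-09). Leaving out LM9 replicate 1 gave 2.26 (SE 0.05). No parental library reached the level of a library labelled knockout.

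**Figure D2:**
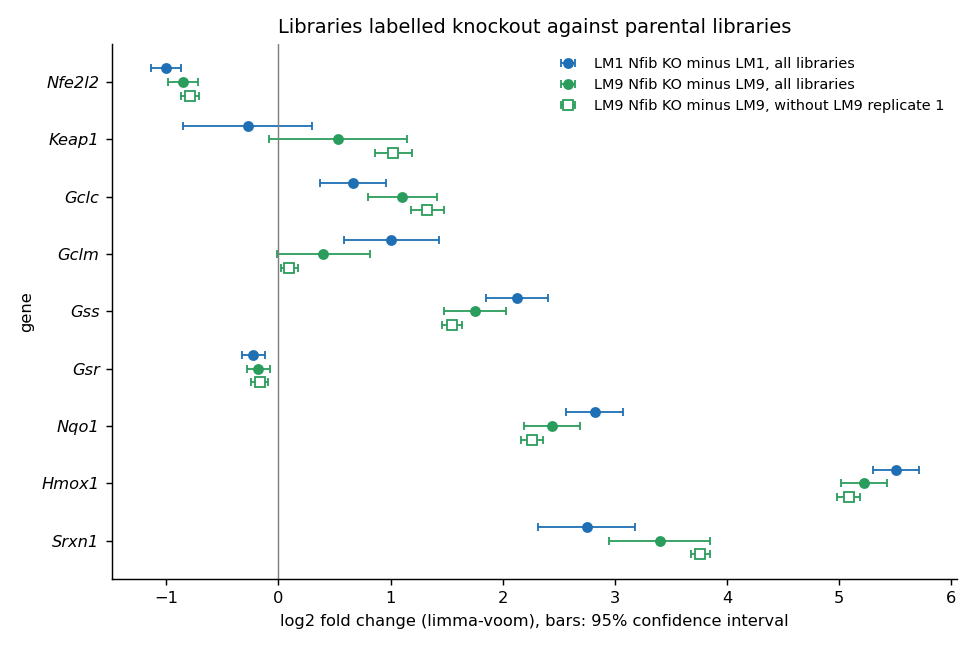
Log2 fold change (x axis) of each gene (y axis) between libraries labelled knockout and parental libraries, with 95% confidence intervals from limma-voom, for LM1 and for LM9 with all libraries and without LM9 replicate 1. Keap1 and Srxn1 are the genes whose LM9 value moves most when that library is left out, to 1.02 and 3.76.

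For each of the 9 genes the exact two-sided permutation p of LM1 Nfib KO against LM1 was 0.1, which groups of 3 cannot go below, and which means that the groups did not overlap, as for 89.1% of all genes. In LM9 it was 0.1 for all but Keap1, where it was 0.4, and the groups did not overlap for 80.5% of all genes.

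Levels of different genes were compared per kilobase of exon, as mean TMM-scaled CPM per kb. In LM1 Nfe2l2 was highest at 60.7 ± 1.72, followed by Gsr at 49.6 ± 1.03, Srxn1 at 30.6 ± 0.50 and Gclm at 21.8 ± 0.178 (SD, n = 3). Nqo1 at 19.1 ± 0.386 and Hmox1 at 14.7 ± 1.04 came next, then Keap1 at 12.9 ± 1.23 and Gclc at 11.9 ± 0.984, which lay within their spread of each other, and Gss was lowest at 6.82 ± 0.107. In the knockout-labelled LM1 libraries the order was led by Hmox1 at 668 ± 9.96, Srxn1 at 206 ± 0.560 and Nqo1 at 135 ± 2.77. Gclm at 43.9 ± 1.11 and Gsr at 42.5 ± 0.473 were neighbours that lay close to their spread, as were Nfe2l2 at 30.2 ± 0.758 and Gss at 29.8 ± 0.514. Gclc at 18.9 ± 0.115 and Keap1 at 10.6 ± 0.310 closed the order. Knockout-labelled LM9 libraries gave the same order of genes. In LM9, Nfe2l2 at 55.7 ± 4.31 and Gsr at 49.0 ± 0.541 again led. Gclm, Nqo1, Srxn1 and Hmox1, of which Hmox1 had the lowest library at 14.8, lay above Gclc, Gss and Keap1, of which Keap1 had the highest at 13.4. The LM9 libraries of Gclm (35.5 ± 11.5), Nqo1 and Srxn1 overlapped, as did those of Gclc, Gss and Keap1 (7.82 ± 4.80).

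Ratios of 2 genes within a library do not depend on how the library is scaled. The log2 ratio of Nfe2l2 to Keap1, in counts per kb of exon, was 2.24 ± 0.17 in LM1 and 1.51 ± 0.08 in knockout-labelled LM1 libraries (SD, n = 3). In LM9 the Nfe2l2 to Keap1 ratio was 2.18 in replicate 1 and 3.44 and 3.35 in replicates 2 and 3, and it was 1.58 ± 0.02 in knockout-labelled LM9 libraries. The ratio of transcription factor to inhibitor transcript was therefore lower in every library labelled knockout than in every parental one.

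The log2 ratio of Gclc to Gclm, the transcripts of the 2 ligase subunits, was -0.88 ± 0.11 in LM1 and -1.22 ± 0.03 in knockout-labelled LM1 libraries. It was -0.91 in LM9 replicate 1, and -2.36 and -2.58 in LM9 replicates 2 and 3, against -1.24 ± 0.04 in knockout-labelled LM9 libraries. Gclc transcripts relative to Gclm were thus lowest in LM9 replicates 2 and 3. The difference between LM9 Nfib KO and LM9 was 0.71, and 1.23 without LM9 replicate 1, while that between LM1 Nfib KO and LM1 was -0.34.

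The log2 ratio of Gclc to Gss was 0.80 ± 0.12 in LM1 and -0.66 ± 0.03 in knockout-labelled LM1 libraries, which placed the ligase transcript above that of the synthetase in LM1 and below it in the latter. In LM9 the Gclc to Gss ratio was 0.82 in replicate 1, and -0.24 and -0.58 in replicates 2 and 3, and it was -0.63 ± 0.07 in knockout-labelled LM9 libraries. The LM9 difference was -0.63, and -0.22 without LM9 replicate 1. Over the 12 tests of the 3 ratios, the exact permutation p was 0.1 at lowest and the adjusted value 0.3, and a p of 0.1 is the lowest that groups of 3 allow.

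**Figure D3:**
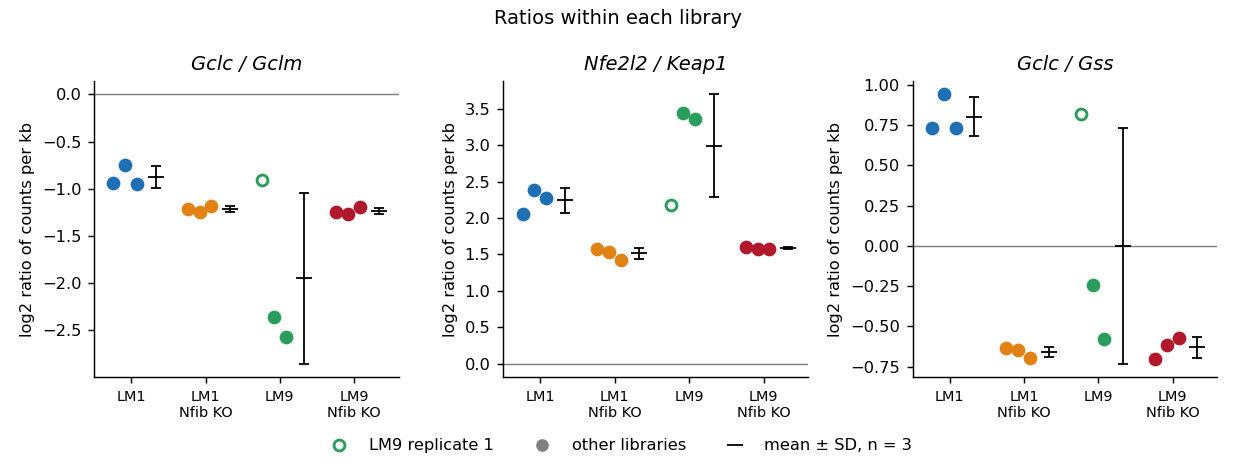
Log2 ratio of counts per kb of exon (y axis) for 3 pairs of genes in each library, by group (x axis), with mean ± SD of 3 libraries. LM9 replicate 1 (open circle) lies with LM1 in each panel, and the Nfe2l2 to Keap1 ratio is lower in all 6 libraries labelled knockout.

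The lines from different metastases were compared next, LM9 against LM1. With all libraries none of the 9 genes passed (limma-voom, 0.0055% of all genes called), although 7 had an unadjusted p under 0.05, as did 47.7% of all genes, and the lowest adjusted p was 0.0543. The edgeR quasi-likelihood test also called 0 of the 9 (0.0055% of all genes), and DESeq2 called 5 (31.8% of all genes). Without LM9 replicate 1, 4 genes were higher and 4 lower in LM9 (32.4% and 33.4% of all genes), all but Gsr. Gclm at 0.95 (SE 0.04, limma-voom adjusted p = 1.92e-12), Gss at 0.57, Nqo1 at 0.57 and Hmox1 at 0.41 were higher in LM9 replicates 2 and 3 on the log2 scale. Keap1 at -1.34 (SE 0.08, limma-voom adjusted p = 1.53e-10), Srxn1 at -1.03, Gclc at -0.65 and Nfe2l2 at -0.19 were lower. The genes known as NRF2 targets did not share a direction, since Gclm, Nqo1 and Hmox1 lay above LM1 and Srxn1 and Gclc below it. Gsr was at -0.03 (limma-voom adjusted p = 0.515).

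**Figure D4:**
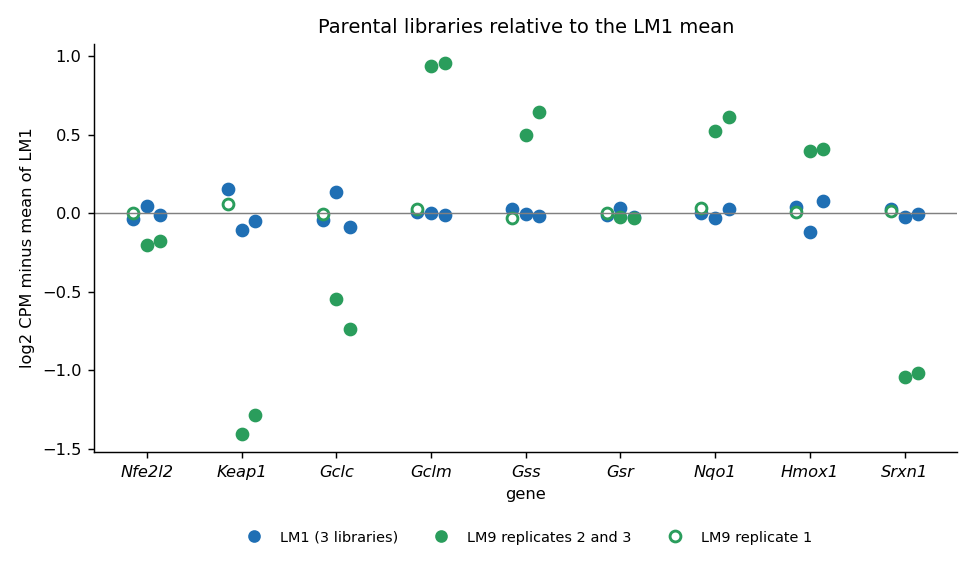
Log2 CPM of the 9 genes (x axis) in the 6 parental libraries, relative to the mean of LM1 (y axis). LM9 replicate 1 is within 0.0575 of the LM1 mean for every gene, while LM9 replicates 2 and 3 lie together and away from it for all but Gsr.

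No difference between the groups labelled knockout passed for any of these genes. Between the libraries labelled LM9 Nfib KO and LM1 Nfib KO, log2 differences of the 9 genes were at most 0.05 in size and the libraries of these groups overlapped for each gene. With limma-voom 0 of the 9 passed (0% of all genes called, with and without LM9 replicate 1), as with the edgeR test and DESeq2. With all libraries 0 of the 9 had an unadjusted p under 0.05, beside 0.979% of all genes. Over the 9 genes the 95% confidence intervals reached from -0.62 to 0.53 with all libraries, both for Keap1, and from -0.16 to 0.12 without LM9 replicate 1.

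A further test asked whether the change that came with the knockout label was of another size in LM9 than in LM1, by subtracting the LM1 contrast from that of LM9. With all libraries 0 of the 9 genes passed (limma-voom, 0% of all genes called), 4 had an unadjusted p under 0.05, as did 24.7% of all genes, and edgeR and DESeq2 called 0 of the 9 (0.0055% and 0.385% of all genes). Without LM9 replicate 1, 8 of the 9 passed, and so did 57.2% of all genes. Keap1, Srxn1, Gclc and Nfe2l2 then changed in a higher direction in LM9 than in LM1, and Gclm, Gss, Nqo1 and Hmox1 in a lower one. These were the genes that passed between LM9 and LM1 without that library, with the sign turned, and the comparisons share the parental libraries.

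Genes around the pathway were described in 7 lists. Each is given by its counts beside the shares of all genes above, and each held genes that rose and genes that fell. Most of their genes passed in one direction or the other, as most genes of these libraries did.

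The first list held 15 partners and regulators of NRF2. In LM1 4 rose and 7 fell, and in LM9 3 rose and 9 fell, with median log2 fold changes of -0.24 and -0.47. In LM9 4 rose and 11 fell without LM9 replicate 1 (median -0.77). With library totals the counts were 6 higher and 6 lower in LM1, and 5 and 7 in LM9, with medians of -0.02 and -0.12. Rbx1, the RING subunit of the ligase complex that degrades NRF2, rose by 1.79 in LM1 and 1.57 in LM9 (log2, limma-voom adjusted p of 4.68e-09 and 1.40e-08). Dpp3, a peptidase that binds KEAP1, rose by 1.04 and 1.44. Prkcd, a protein kinase C that can phosphorylate NRF2, fell from 330 ± 4.54 CPM in LM1 to 53.3 ± 1.84 CPM in knockout-labelled LM1 libraries (SD, n = 3). Maff, a small MAF protein, fell by 1.37 and 2.15 on the log2 scale. Bach1, the heme-regulated repressor of Hmox1, was picked after its values were seen. Bach1 stood at 122 ± 0.766 CPM in LM1 and at 34.8 ± 0.620 CPM in knockout-labelled LM1 libraries (log2 fold change -1.81, SE 0.14, limma-voom adjusted p = 2.56e-07), and fell by 1.38 in LM9.

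NADPH, which glutathione reductase and NQO1 consume, comes from several routes, and this list of 11 genes moved in both directions. Nnt, which fell, was counted under 2 identifiers, which makes 12 entries, and by entry in each line 6 rose and 6 fell, also without LM9 replicate 1 and with library totals. The list had a median of 0.10 in LM1 and -0.07 in LM9, while library totals gave 0.33 and 0.28. Without LM9 replicate 1 the LM9 median was -0.22. Mthfd2 and Mthfd1, enzymes of the folate cycle, rose by 4.17 and 2.74 in LM1 and by 3.87 and 2.64 in LM9 on the log2 scale. Mthfd2 went from 8.53 ± 0.452 to 154 ± 1.30 CPM in LM1. Tkt, the transketolase of the pentose phosphate pathway, fell by 3.30 in LM1 and 3.48 in LM9. Idh1, the cytosolic isocitrate dehydrogenase, fell by 3.0 and 2.59. G6pdx, the first enzyme of the pentose phosphate pathway and picked after its values were seen, went from 86.2 ± 2.66 CPM in LM1 to 466 ± 9.0 CPM in knockout-labelled LM1 libraries.

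Cysteine is the limiting amino acid of glutathione synthesis. Of 20 genes of cystine import and cysteine supply, 18 were tested, of which 10 rose and 3 fell in LM1, and 11 rose and 3 fell in LM9 (medians 0.94 and 1.04). Without LM9 replicate 1 there were 11 higher and 5 lower in LM1, and 13 higher and 3 lower in LM9 (median 1.01). With library totals 12 were higher and 3 lower in LM1, and 14 and 3 in LM9, with medians of 1.17 and 1.41. Cth, which makes cysteine from cystathionine, was at 12 to 22 counts in LM1 libraries and rose to 28.4 ± 1.82 CPM in knockout-labelled LM1 libraries, and from 11 to 25 counts to 27.7 ± 0.959 CPM in LM9. Anpep, an aminopeptidase that cleaves the dipeptide left when glutathione is broken down outside the cell, had at most 16 counts in a parental library and 252 ± 3.73 CPM in knockout-labelled LM1 libraries. Ahcy, which splits S-adenosylhomocysteine, was the only gene that the naming rule selected among the falls, with -0.70 in LM1 and -1.02 in LM9. Slc7a11, the cystine transporter and a known NRF2 target, was picked after its values were seen. Its level was 89.0 ± 6.20 CPM in LM1 and 68.1 ± 2.56 CPM in knockout-labelled LM1 libraries, and did not pass in either line (limma-voom adjusted p of 0.0622 and 0.242). Slc7a11 passed in LM9 once LM9 replicate 1 was left out, as a rise of 0.52 in place of 0.24 (limma-voom adjusted p = 6.85e-06).

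Of 39 glutathione peroxidases, transferases, glutaredoxins and related genes, 33 were tested. In LM1 12 rose and 17 fell, and in LM9 11 rose and 19 fell (medians -0.29 and -0.48). Leaving out LM9 replicate 1 gave 10 higher and 20 lower in LM9 (median -0.61). With library totals the counts were 13 higher and 15 lower in LM1, and 13 and 16 in LM9, with medians of -0.07 and -0.12. The transferases Gsta4 and Mgst2 fell nearly out of detection. Gsta4, at 44.0 ± 2.17 CPM in LM1 and at 39.9 ± 5.02 CPM in LM9, had between 0 and 3 counts in each library labelled knockout. Mgst2 was at 56.9 ± 1.86 CPM in LM1 and at 9 to 18 counts in those libraries. Gpx8, a peroxidase of the endoplasmic reticulum, rose by 0.91 in LM1 and 1.25 in LM9, and Gsto1, an omega-class transferase, by 1.03 and 0.89.

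Of 19 genes of the thioredoxin, peroxiredoxin and superoxide systems, 11 rose and 8 fell in LM1, and 10 rose and 8 fell in LM9 (medians 0.49 and 0.38). The LM9 counts were 10 and 8 without LM9 replicate 1 too, with a median of 0.25, and library totals gave medians of 0.72 and 0.74. Txnip, which binds and inhibits thioredoxin, fell from 5451 ± 139 CPM in LM1 to 33.3 ± 1.16 CPM, and from 5267 ± 165 CPM in LM9 to 33.6 ± 2.24 CPM (log2 fold changes -7.35 and -7.29, limma-voom adjusted p of 1.90e-14 and 1.98e-14). Sesn3, a sestrin, fell by 4.85 and 4.12, while its relative Sesn2 rose by 2.28 and 2.31. Cat, the catalase gene, rose from 101 ± 3.09 to 375 ± 1.92 CPM in LM1 and by 2.28 on the log2 scale in LM9.

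The list of other NRF2 target genes held 42 symbols, of which 40 were tested and some stand in other lists too. In LM1 20 rose and 16 fell, and in LM9 18 rose and 18 fell (medians 0.22 and 0.03), so the targets did not share a direction. The LM9 median turned to -0.14 without LM9 replicate 1, with 19 higher and 20 lower, and was 0.39 with library totals, with 21 higher and 17 lower. In LM1 the median with library totals was 0.44. Adh7, an alcohol dehydrogenase, went from 2.10 ± 0.287 CPM in LM1 to 96.3 ± 5.13 CPM in knockout-labelled LM1 libraries. Cbr3, a carbonyl reductase, had 0 to 5 counts in any parental library and was at 33.3 ± 0.554 CPM in knockout-labelled LM1 libraries. Gsta4, given above, was the gene of this list that fell most, and Mgst1, a membrane-bound glutathione transferase, fell too, from 126 ± 3.13 to 1.12 ± 0.182 CPM in LM1 and from 151 ± 22.6 to 1.08 ± 0.176 CPM in LM9.

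Heme oxygenase releases iron, and 13 genes of heme and iron handling were set beside Hmox1. In LM1 7 rose and 5 fell, and in LM9 6 rose and 5 fell (medians 0.20 and 0.33). The LM9 median was 0.15 without LM9 replicate 1, with 6 higher and 5 lower, and 0.68 with library totals, with 8 higher and 5 lower. In LM1 library totals gave 7 higher and 4 lower, with a median of 0.42. Tfrc, the transferrin receptor, rose by 2.35 in LM1 and 2.01 in LM9 on the log2 scale, and Slc48a1, a heme transporter, by 1.40 and 1.1. Ftl1, the ferritin light chain, fell from 4612 ± 260 CPM in LM1 to 1303 ± 31.3 CPM, and Blvrb, a biliverdin reductase, fell by 1.83 and 2.17. Ferritin and Hmox1, both counted among NRF2 targets, thus moved in opposite directions.

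**Figure D5:**
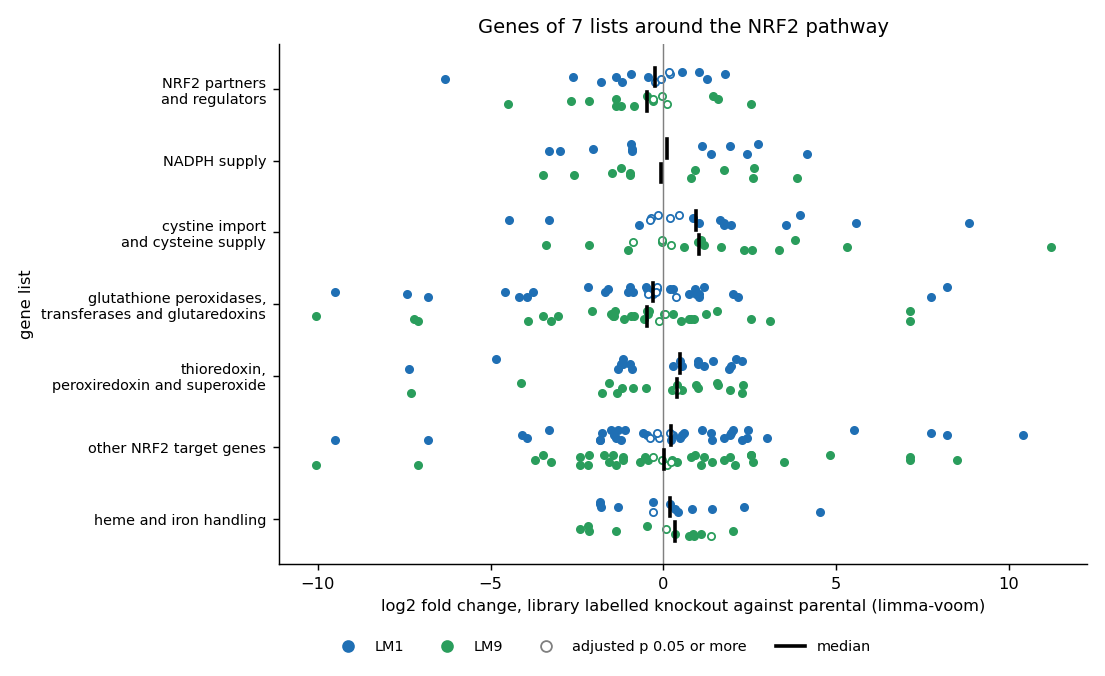
Log2 fold changes (x axis) of the genes of 7 lists (y axis) in libraries labelled knockout against parental libraries, for LM1 and LM9, with open points for genes that did not pass and bars for medians. Each list spans both directions, and with all libraries and TMM factors the largest median is 1.04, for cystine import and cysteine supply in LM9.

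The genes whose pattern over the 12 libraries was most like that of a member were found by the root mean square (RMS) difference of log2 CPM, each gene centred on its own mean, among 9286 protein-coding genes whose mean CPM reached 10. These patterns include the gap between LM9 replicate 1 and LM9 replicates 2 and 3, besides the step between parental libraries and those labelled knockout. In log2 CPM, LM9 replicate 1 minus the mean of replicates 2 and 3 was 1.40 for Keap1, 1.04 for Srxn1 and -0.92 for Gclm. That gap was smallest in size for Gsr, at 0.03. Errfi1 and Togaram1 were nearest to Nfe2l2 (RMS 0.0285 and 0.0299), and Rhou and Gpr180 to Keap1 (0.0840 and 0.0859). For Hmox1 they were Rrp12 and Tmem62 (0.110 and 0.206), for Srxn1 Tmcc3 and Adamtsl5 (0.0645 and 0.0701), and for Nqo1 Ccn3 and Ran (0.0563 and 0.0591). Hcfc2 and Gphn were nearest to Gclc (0.0449 and 0.0582), Nup43 and Ybx3 to Gclm (0.0458 and 0.0515), Mybbp1a and Psmc2 to Gss (0.0516 and 0.0594), and Ptpn9 and 1110059E24Rik to Gsr (0.0335 and 0.0351). By RMS, which can grow with the spread of the gene itself, Hmox1 had the least close neighbours of the 9. Its nearest, Rrp12, correlated with Hmox1 at r = 0.9995 over the 12 libraries, against 0.949 for Ptpn9 with Gsr. No gene of the 7 lists was among these 18.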

How the data were processed

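RNA of tumourspheres was sequenced as 12 libraries after TruSeq stranded mRNA preparation. The authors aligned single-end reads to mm10 with STAR and counted read starts over the exons of each gene with QuasR, and deposited these raw counts per gene, 1 table per library. Versions, the annotation release and the use of strand in counting are not given in the sources used here. The 18278 genes had at least 8 counts in their third-highest library, so low genes were not part of these tables. Of the identifiers, 18268 were named with GENCODE M21.

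Groups and replicate numbers came from the sample titles. Genes were filtered with filterByExpr (edgeR 4.0.16, minimum count 10, minimum total 15), which left 18176. All 4 groups entered one limma-voom fit (limma 3.58.1, R 4.3.3) with TMM factors, as the study's methods name limma-voom, without a replicate term, and p-values were adjusted by Benjamini-Hochberg over all genes tested. The edgeR quasi-likelihood test and DESeq2 1.42.0 were alternatives, beside other scalings, filters, weights, a replicate block and leaving out each library. Script steps were tested on simulated data. A floor of 3 counts is 0.0807 to 0.103 CPM, for counting error only. Replicates of a group differed by more than counting noise (chi-square per gene of 1.42 or more), so none repeated another library of its group. Libraries of different groups were not compared in this way. Ratios were compared by exact two-sided permutation tests, adjusted over 12.

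The 9 genes, the 7 gene lists and the marker lists were chosen with earlier results of these data known. Each of the 9 genes is named with every library, and so are the 2 protein-coding genes nearest to each in pattern, without their libraries. Nfib and Ero1l were set as checks of the labels, although exon counts of Nfib cannot serve as one. From each list the text names up to 2 genes that rose and 2 that fell in both lines, with the largest mean log2 fold change among those at a mean of at least 10 CPM, and says where another gene was picked later.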

Additional observations from a re-analysis of the deposited data

Results flagged for a closer look

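For 8 of the 9 genes the change that came with the knockout label differed in size between LM9 and LM1 once LM9 replicate 1 was left out (limma-voom, a test of the difference of the contrasts, beside 57.2% of all genes). With all libraries 0 of the 9 passed, with 4 at an unadjusted p under 0.05, as were 24.7% of all genes. The log2 change in LM9 minus that in LM1 was 1.30 for Keap1, 1.01 for Srxn1, 0.66 for Gclc and 0.22 for Nfe2l2. It was -0.91 for Gclm, -0.58 for Gss, -0.57 for Nqo1 and -0.43 for Hmox1. Levels of these genes lay close together in both groups labelled knockout, and LM9 replicates 2 and 3 differed from LM1. Whether LM9 replicate 1 carries the right label was not tested.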

How the results depend on the processing

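The 9 genes gave 8 calls in LM1 and 7 in LM9 between knockout-labelled and parental libraries (81.2% and 82.3% of all genes). They were 6 and 5 with a log2 fold change above 1 in size. The share of all genes at that setting was not counted, and the median size of change over all genes was 1.16 and 1.24. Over the other alternatives the calls were 7 to 9 in both lines (77.6% to 89.4% and 76.5% to 88.9% of all genes). Of 189 values of single genes under alternatives, 185 kept direction and side of the threshold in LM1 and 180 in LM9. Gsr lost its call in LM1 with library totals (-0.0041) and turned to 0.17 in LM9, as the scaling shifted all genes. LM9 against LM1 had 0 calls, but 5 with DESeq2 (31.8% of all genes), 4 with library totals (28.8%), 5 among genes of at least 5 CPM (39.4%) and 8 with sample quality weights (63.8%), and leaving out single libraries gave 0 to 8, the 8 being without LM9 replicate 1 (65.7%). The difference of the contrasts had 0 calls, but 8 with sample quality weights (58.1%), and 0 to 8 on leaving out single libraries, the 8 again without LM9 replicate 1 (57.2%). Between the groups labelled knockout 0 of the 9 genes passed in all alternatives, with at most 0.0357% of all genes called. The replicate block left the calls at 8, 7, 0, 0 and 0 in the 5 comparisons. Same-numbered libraries did not deviate together (correlations of -0.16 to 0.0903). Since deviations were taken from means of 3 libraries, this check cannot exclude a shared culture day. List counts without LM9 replicate 1 were added after seeing the data, and fits of only the groups compared could not be made for the difference of the contrasts.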
